A study of Mus musculus with 6 samples.

Results

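Transforming growth factor beta (TGF-beta) genes were read out of RNA-seq counts of primary mouse hepatic stellate cells. The 10 genes were chosen by symbol. They are the ligand genes Tgfb1, Tgfb2 and Tgfb3, the receptor genes Tgfbr1, Tgfbr2 and Tgfbr3, the latency protein genes Ltbp1 and Ltbp4, and the response genes Pmepa1 and Tgfbi. All 10 were present among the 22905 symbols of the count table, and all 10 were among the 14439 genes that passed the low-count filter. The 6 libraries came from stellate cells isolated from mice labelled BucheKI/KI-Hep, a line described as over-expressing butyrylcholinesterase in hepatocytes. Every animal had received CCl4, carbon tetrachloride, which injures hepatocytes and scars the liver, so both groups share the genotype and the injury. PBS is the label of 3 libraries and DOX that of the other 3. The sources used here do not state the age of the animals, the promoter of the introduced gene, the CCl4 schedule or whether animals were pooled. The comparison asks whether TGF-beta transcripts in these isolates differed between DOX and PBS animals.

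In GENCODE M21 on GRCm38 the genes lie on several chromosomes: Tgfb1 at chr7:25687002-25705077, Tgfb2 at chr1:186622792-186705989, Tgfb3 at chr12:86056745-86079041, Tgfbr1 at chr4:47353222-47414931, Tgfbr2 at chr9:116084293-116175360. The others are Tgfbr3 at chr5:107106570-107289629, Ltbp1 at chr17:75005568-75392512, Ltbp4 at chr7:27305136-27337692, Pmepa1 at chr2:173224458-173276533 and Tgfbi at chr13:56609523-56639562.

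TGF-beta is made as a precursor that is cut by furin-type proteases, yet the cut propeptide stays wrapped around the growth factor and keeps it latent. Latent TGF-beta binding proteins tie this complex to the matrix, and integrins or thrombospondin release it. The free ligand joins the type II receptor to the type I receptor, which phosphorylates SMAD2 and SMAD3. In injured liver this route is the best known driver of stellate cell conversion to matrix-producing myofibroblasts.

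Values of single libraries are given in the order of replicates 1, 2 and 3. Total counts were between 36220282 and 37707364 per library. Bche, the butyrylcholinesterase gene, had 0.212, 0.680 and 0.354 CPM (counts scaled to library size, TMM) in the PBS libraries. It had 35.8, 16.4 and 99.3 CPM in the DOX libraries, each above every PBS library. Whether reads of the introduced copy are counted in this row, and what DOX stands for, is not stated in the labels. Bche was highest in DOX replicate 3, which also had the highest hepatocyte marker sum. That sum was 446 CPM in DOX replicate 2, below the 498 and 547 CPM of PBS replicates 2 and 3. The part of hepatocyte RNA in the Bche level was not tested. The isolates held RNA of several cell types. The 14 quiescent stellate markers summed to 296 to 696 CPM in PBS and 383 to 649 CPM in DOX, with the stellate vitamin A storage gene Lrat between 1.12 and 3.51 CPM and Gfap at no more than 0.0819 CPM. The 12 endothelial markers summed to 6699 to 8074 CPM in PBS and 5755 to 6992 CPM in DOX. The 15 macrophage markers summed to 4518 to 6890 CPM in PBS and 8269 to 15075 CPM in DOX, without overlap and highest in DOX replicate 1. The 12 hepatocyte markers summed to 291 to 547 CPM in PBS and 446 to 3668 CPM in DOX, highest in DOX replicate 3. No marker of these 4 lists was at 0 in all 6 libraries. All levels given refer to the mixed RNA of an isolate. Fewer cells of a type and less RNA per cell cannot be told apart in them.

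None of the 10 TGF-beta genes passed the test between groups. In edgeR's quasi-likelihood test, 0 of 10 had an adjusted p under 0.05, where 6.41% of all 14439 genes did. The same count was 0 in limma-voom (5.97% of all genes). It was 1 in DESeq2 (17.0% of all genes), which called Tgfbi higher. With DOX higher, DESeq2 called 10.9% of all genes and with DOX lower 6.08%. At an unadjusted edgeR p under 0.05 the count was also 1, again Tgfbi (28.7% of all genes, 15.9% higher and 12.7% lower). The PBS and DOX libraries did not overlap for 1 of the 10, Tgfbi, against 34.6% of all genes in either direction, 16.9% with DOX higher and 17.7% with DOX lower. The median log2 fold change of the 10 was 0.07, beside -0.01 over all genes tested, and 3 of the 10 had a negative sign. In simulated counts of 14439 genes, 100 were set to a log2 difference of 1 and 100 to 2, and no others differed. There edgeR recovered 48 of the first 100 and 74 of the second, so a missed threshold does not show that levels were equal. False calls were 7.58% of edgeR's calls there and 26.7% of those of DESeq2. In the data edgeR called more genes, 926, than were changed in the simulation, so these rates need not hold for the data. Labels do not say that the replicates came from separate animals, so every p-value reflects only how far these libraries spread, which may be technical.

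**Figure D1:**
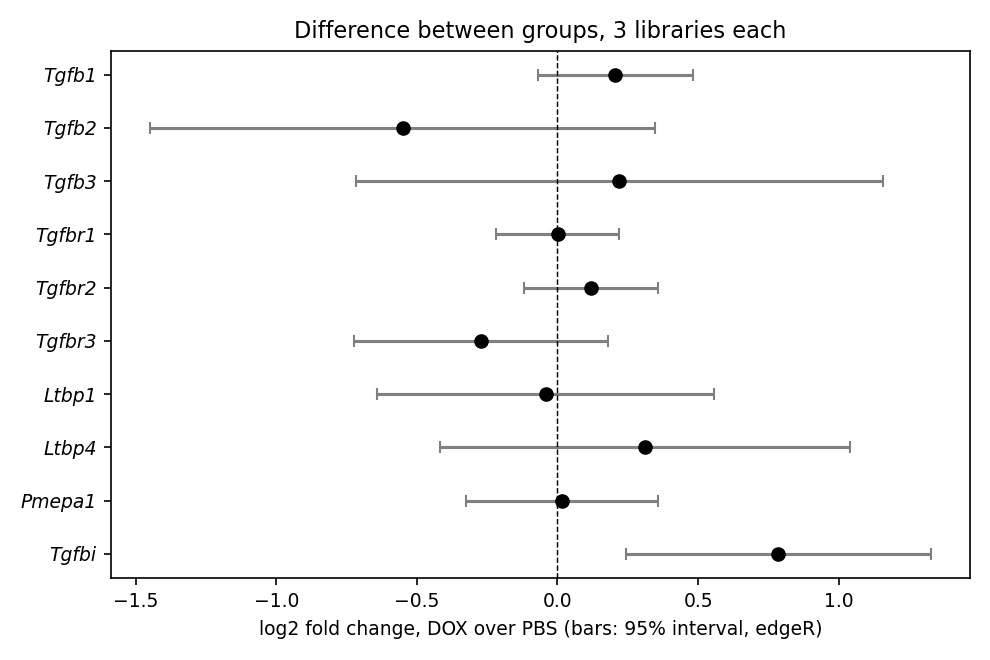
Log2 fold change of DOX over PBS for each of the 10 genes (x axis) with its 95% interval from edgeR, not adjusted for the number of genes, from 3 libraries per group. Tgfbi, at 0.79, is the gene whose interval lies above 0, and the intervals of the other 9 genes include 0.

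By the deposited values per gene length, Tgfb1 was the most abundant of the 10 genes. The deposited FPKM, a fragment count scaled for length and depth, divides each count by gene length and library total and lets genes be set side by side. By this measure Tgfb1 stood between 93.3 and 114 FPKM in the 6 libraries, above 95.3% of the genes tested. Its range did not meet that of the next gene. Tgfbr3, Tgfbr2, Tgfbi, Ltbp4 and Tgfbr1 followed with mean levels of 41.4, 40.8, 38.9, 32.6 and 23.9 FPKM, and each of these overlapped with its neighbour in the order. Pmepa1 stood apart below them at 7.58 to 10.2 FPKM. Ltbp1, Tgfb3 and Tgfb2 were lowest, with mean levels of 3.37, 2.58 and 1.55 FPKM. Their ranges overlapped, but within each of the 6 libraries Ltbp1 was above Tgfb3 and Tgfb3 above Tgfb2. The order rests on the lengths used. The deposited FPKM implies 2.20 kb for Tgfb1, 4.79 kb for Tgfbr2 and 8.52 kb for Tgfb2, where all exons in GENCODE M21 together cover 5.04, 8.19 and 5.79 kb. With GENCODE lengths, an alternative chosen after seeing the data, Tgfb1 stood at 40.6 to 49.6 and Tgfbr3 at 27.8 to 50.2 per kilobase, so they overlapped, and Tgfb1 was higher in 4 of 6 libraries. Tgfb3 was then above Tgfb2 in 4 of 6 libraries and Ltbp1 above Tgfb3 in 3 of 6.

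**Figure D2:**
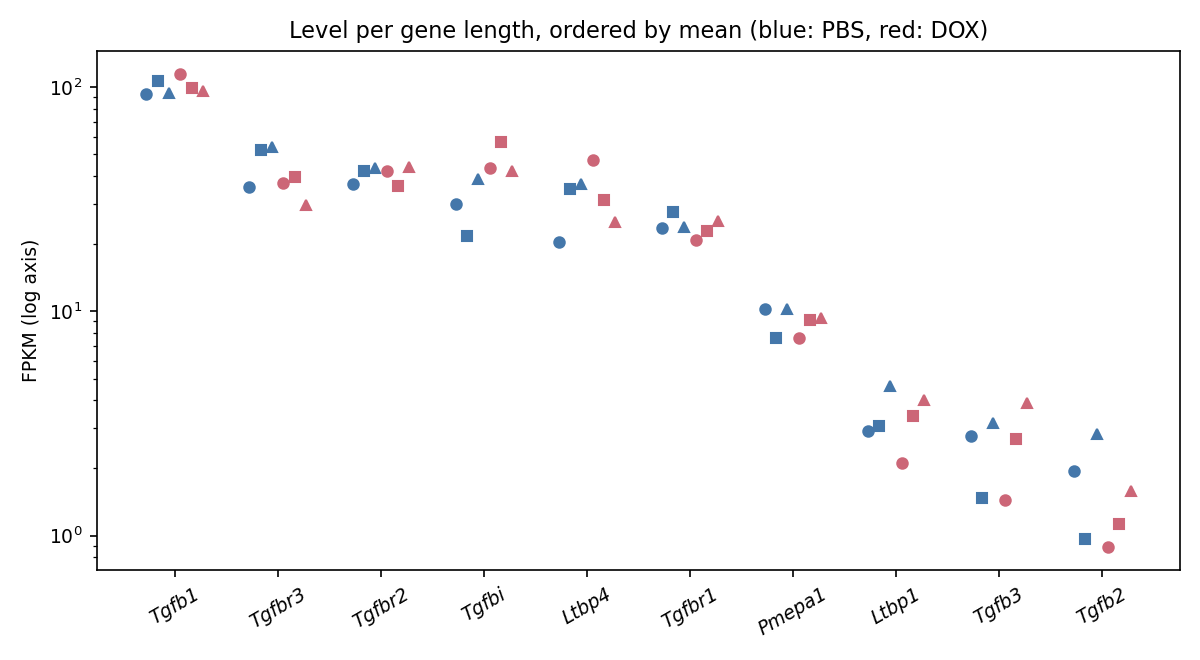
Deposited FPKM of the 10 genes (y axis, log scale) in the 6 libraries, ordered from left to right by mean level, with circles, squares and triangles for replicates 1, 2 and 3. Tgfb1 lies near 100.4 FPKM in all libraries, while Tgfb2 and Tgfb3 lie between 0.893 and 3.92 FPKM.

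The coding sequences of the 3 ligands differ in a feature known to take part in release from latency. The propeptides of TGF-beta 1 and TGF-beta 3 carry an arginine-glycine-aspartate triplet that integrins hold, and TGF-beta 2 lacks it. The triplet was found at codons 244 to 246 of Tgfb1 and 261 to 263 of Tgfb3, and no such triplet occurs in the 414 codons of Tgfb2. These are the coding stretches around it, 5′ to 3′, with the triplet's codons in capitals:
Tgfb1: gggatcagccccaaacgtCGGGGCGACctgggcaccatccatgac
Tgfb3: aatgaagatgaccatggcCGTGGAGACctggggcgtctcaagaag
The Tgfb1 stretch spans the junction of exons 4 and 5 (chr7:25696995-25697168, plus strand) and that of Tgfb3 lies in exon 5 (chr12:86062147-86062191, minus strand), in GENCODE M21 on GRCm38. All 3 ligands carry the furin-type site that ends the propeptide, 4 codons shown in capitals, followed by the start of the mature growth factor:
Tgfb1: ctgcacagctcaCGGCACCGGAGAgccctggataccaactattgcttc
Tgfb2: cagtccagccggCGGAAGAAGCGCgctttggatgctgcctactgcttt
Tgfb3: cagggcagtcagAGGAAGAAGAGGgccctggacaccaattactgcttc
These sites lie in exon 5 of each gene, at chr7:25697223-25697270 (plus strand), chr1:186630612-186630659 (minus strand) and chr12:86062030-86062077 (minus strand). Over the 336 bases that encode the mature part, Tgfb1 shares 68.8% with Tgfb2 and 73.5% with Tgfb3, and Tgfb2 shares 70.8% with Tgfb3.

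Tgfb1 supplied most of the ligand RNA in every library. Its share of the summed FPKM of the 3 ligands was 95.2%, 97.8% and 94.0% in the PBS libraries, against 98.0%, 96.3% and 94.6% in the DOX libraries. The groups overlapped, with means of 95.6% ± 1.91 and 96.3% ± 1.70 (SD, n = 3 each, two-sided exact permutation p = 0.7, where 3 against 3 cannot go below 0.1). The difference turned sign without PBS replicate 3 (a difference of -0.18 percentage points, DOX less PBS) and without DOX replicate 1 (-0.21). With GENCODE lengths the share was 84.8% to 94.7% over the 6 libraries.

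Tgfb1, the TGF-beta most tied to liver fibrosis, did not pass the test between groups. It stood at 201, 221 and 196 CPM in the PBS libraries, against 271, 231 and 210 CPM in the DOX libraries. The highest PBS library lay above the lowest DOX library, so the groups overlapped. Its log2 fold change was 0.21 (SE 0.12, adjusted p = 0.289 by edgeR). Its 95% interval ran from 0.953-fold to 1.40-fold. DOX replicate 1 was the highest library, and it also had the highest macrophage marker sum. Without it the log2 fold change was 0.10, and without DOX replicate 3 it was 0.29. The part of macrophage RNA in the Tgfb1 level was not tested.

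Tgfb2 had the lowest fold change of the 10 genes. It stood at 16.1, 7.77 and 22.8 CPM in the PBS libraries, against 8.25, 10.2 and 13.4 CPM in the DOX libraries. PBS replicates 1 and 3 were the highest libraries, while PBS replicate 2 lay below every DOX library. On the log2 scale the difference was -0.55 (SE 0.38, adjusted p = 0.383 by edgeR). Its 95% interval, from 0.366-fold to 1.27-fold, was wide. It was -0.88 without PBS replicate 2 and -0.17 without PBS replicate 3, and neither passed the test (edgeR adjusted p of 0.139 and 0.816).

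Tgfb3 had no shared direction within the groups. It stood at 9.23, 4.74 and 10.2 CPM in the PBS libraries, against 5.27, 9.69 and 13.2 CPM in the DOX libraries. The lowest libraries were PBS replicate 2 and DOX replicate 1, and the PBS libraries alone covered a 2.15-fold range. The log2 fold change of 0.22 (SE 0.40, adjusted p = 0.755 by edgeR) became -0.05 without PBS replicate 2 and -0.11 without DOX replicate 3. Annotated transcripts on the opposite strand share 257 and 163 exonic bases with Tgfb3 (Gm48008 and Gm37804) and 124 with Tgfb2 (Gm29491). Whether counting used the strand is not given in the sources used here, so reads of these partners cannot be told apart.

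**Figure D3:**
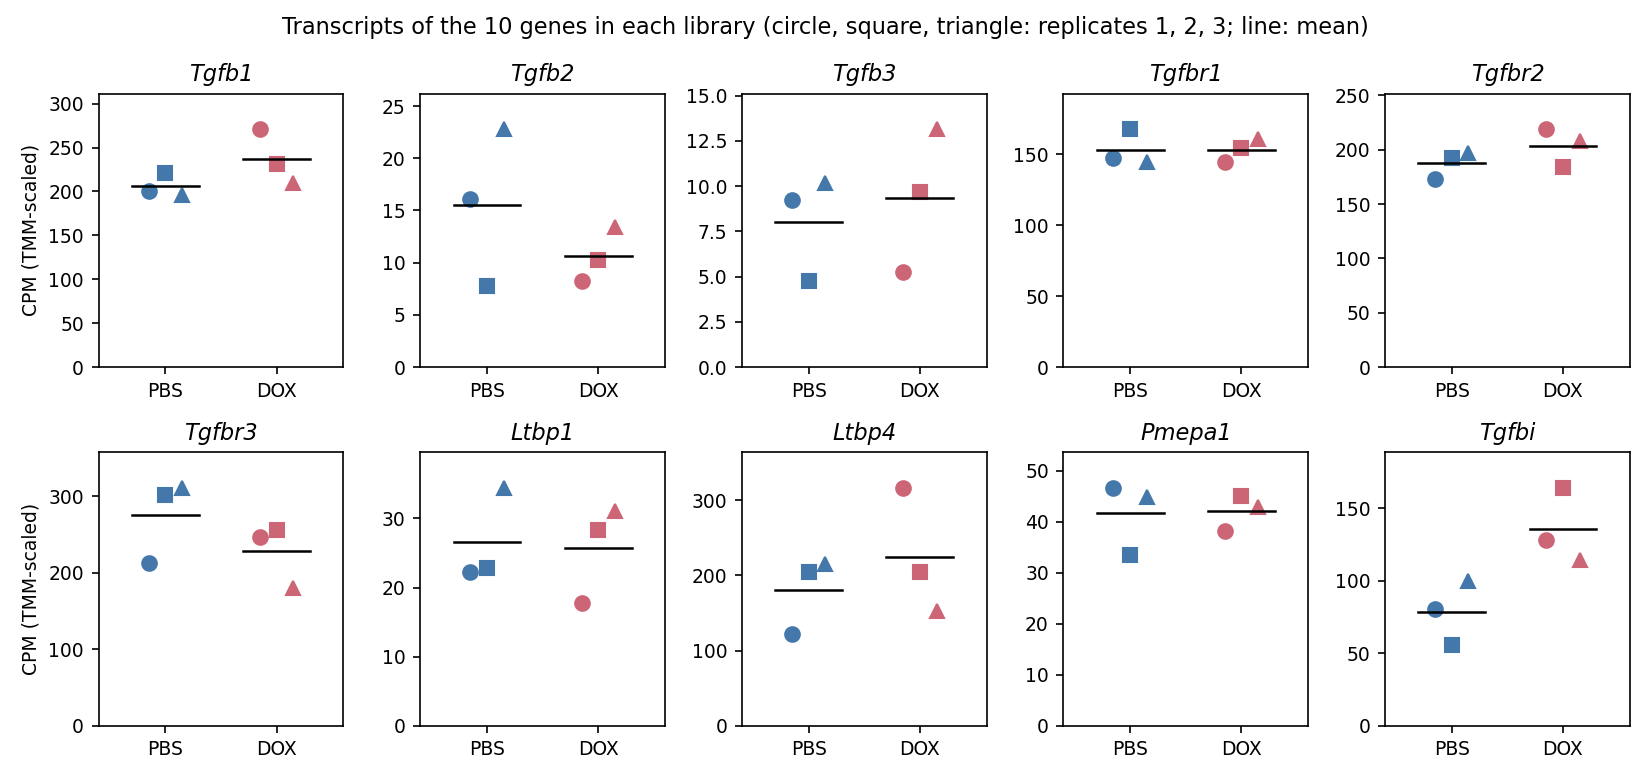
CPM of each gene (y axes from 0, 1 panel per gene) in the 3 PBS (blue) and 3 DOX (red) libraries, with a line at the mean of each group. Tgfbi is the gene in which all DOX libraries, at 114 to 164 CPM, lie above all PBS libraries, at 55.5 to 99.8 CPM.

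The signalling receptors were the steadiest of the 10 genes. Tgfbr1, which encodes the type I receptor kinase ALK5, stood at 147, 168 and 145 CPM in the PBS libraries, against 145, 155 and 160 CPM in the DOX libraries. The libraries of both groups covered nearly the same range. DOX over PBS gave a log2 fold change of 0.0015 (SE 0.09, adjusted p = 0.993 by edgeR), with a 95% interval from 0.860-fold to 1.16-fold. Its sign is not fixed, since it was -0.12 by library totals alone, a scaling that moves the median of all genes by -0.13.

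Tgfbr2, the type II receptor that binds the ligand and activates the type I chain, stood at 173, 192 and 197 CPM in the PBS libraries, against 219, 184 and 208 CPM in the DOX libraries. DOX replicate 2 lay within the PBS range and the other DOX libraries above it. The log2 fold change was 0.12 (SE 0.10, adjusted p = 0.479 by edgeR), with a 95% interval from 0.921-fold to 1.28-fold, and it was -0.0085 by library totals alone. In deposited FPKM, the level of Tgfbr2 was above that of Tgfbr1 in all 6 libraries, but in 3 of 6 with GENCODE lengths. The ratio of their deposited FPKM was 1.58, 1.54 and 1.83 in the PBS libraries, and it was 2.02 in DOX replicate 1, above the PBS range, with DOX replicates 2 and 3 inside it. The groups overlapped in this ratio too (log2 difference 0.11, two-sided exact permutation p = 0.5, smallest possible 0.1).

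Tgfbr3 encodes betaglycan, a co-receptor without kinase activity that presents ligand, TGF-beta 2 above all, to the signalling pair. It stood at 212, 301 and 311 CPM in the PBS libraries, against 247, 255 and 180 CPM in the DOX libraries. PBS replicates 2 and 3 were the highest libraries and DOX replicate 3 the lowest, while PBS replicate 1 lay inside the DOX range. Its log2 fold change was -0.27 (SE 0.19, adjusted p = 0.390 by edgeR), with a 95% interval from 0.606-fold to 1.13-fold. It was -0.13 without DOX replicate 3, the library with the highest hepatocyte marker sum and the lowest endothelial one. The part of these cell types in the Tgfbr3 level was not tested. The gene shares 297 exonic bases (4.54% of its exonic length) with Gm43422 on the same strand.

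The latency protein genes differed from each other in level. Ltbp1, whose product binds the latent complex and anchors it in fibrillin and fibronectin matrix, stood at 22.3, 22.9 and 34.4 CPM in the PBS libraries, against 17.8, 28.4 and 31.1 CPM in the DOX libraries. The highest and the lowest library were PBS replicate 3 and DOX replicate 1, and the others interleaved. Its log2 fold change was -0.04 (SE 0.25, adjusted p = 0.933 by edgeR, 95% interval 0.641-fold to 1.47-fold).

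Ltbp4, which encodes a binding protein of the same family that also takes part in elastic fibre assembly, stood at 122, 204 and 216 CPM in the PBS libraries, against 317, 204 and 152 CPM in the DOX libraries. It was the gene with the widest spread among the DOX libraries after Tgfb3, 2.08-fold. DOX replicate 1 was well above the rest, and DOX replicates 2 and 3 lay inside the PBS range. The log2 fold change was 0.31 (SE 0.31, adjusted p = 0.546 by edgeR, 95% interval 0.749-fold to 2.06-fold). It was 0.53 without DOX replicate 3 and -0.016 without DOX replicate 1. The macrophage markers were also highest in that library, at 15075 CPM in sum, and their part in the Ltbp4 level was not tested.

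The response genes gave different readings. Pmepa1, a direct SMAD target whose product restrains TGF-beta signalling by holding SMAD2 and SMAD3, had mean levels of 41.7 and 42.1 CPM in PBS and DOX. It stood at 46.7, 33.4 and 44.9 CPM in the PBS libraries, against 38.2, 45.1 and 43.0 CPM in the DOX libraries. All DOX libraries lay inside the PBS range. On the log2 scale the difference was 0.02 (SE 0.14, adjusted p = 0.957 by edgeR), with a 95% interval from 0.798-fold to 1.28-fold, and it was -0.11 by library totals alone.

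Tgfbi, named for its induction by TGF-beta, encodes a secreted matrix protein that binds collagen and integrins. It stood at 80.2, 55.5 and 99.8 CPM in the PBS libraries, against 128, 164 and 114 CPM in the DOX libraries. Every DOX library was above every PBS library, and the nearest pair was DOX replicate 3 and PBS replicate 3. The means were 78.5 ± 22.2 and 135 ± 25.8 CPM (SD, n = 3 each), or 0.79 on the log2 scale (SE 0.23, adjusted p = 0.0825 by edgeR, 95% interval 1.18-fold to 2.51-fold). With each library left out in turn the log2 fold change was between 0.59 and 0.99 and edgeR adjusted p between 0.0862 and 0.187. DESeq2 gave an adjusted p of 0.0179 and limma-voom 0.0792. Tgfbi is also made by macrophages, whose marker sums did not overlap between groups. Of their 15 markers, edgeR called 3 higher in DOX (4.38% of all genes) and 0 lower (2.04% of all genes). The library order differed, with Tgfbi highest in DOX replicate 2 and the macrophage sum in DOX replicate 1. The part of macrophage RNA in the Tgfbi level was not tested.

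Promoter sequence is shown for Tgfbi and Tgfb2, the genes with the highest and the lowest fold change. Of the 10 genes, 7 had 11 start sites in the RefSeq promoter table (GRCm38.p6). Tgfb3, Tgfbr3 and Pmepa1 had none. The 250 bases before each start were searched on both strands for CAGAC, the core that SMAD proteins bind, in capitals here, which reads as GTCTG where the match is on the other strand:
Tgfbi: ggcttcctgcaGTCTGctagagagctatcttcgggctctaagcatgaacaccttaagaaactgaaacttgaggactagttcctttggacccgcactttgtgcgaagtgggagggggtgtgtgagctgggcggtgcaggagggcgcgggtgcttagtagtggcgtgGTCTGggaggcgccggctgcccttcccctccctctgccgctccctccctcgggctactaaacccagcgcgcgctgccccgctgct
Tgfb2: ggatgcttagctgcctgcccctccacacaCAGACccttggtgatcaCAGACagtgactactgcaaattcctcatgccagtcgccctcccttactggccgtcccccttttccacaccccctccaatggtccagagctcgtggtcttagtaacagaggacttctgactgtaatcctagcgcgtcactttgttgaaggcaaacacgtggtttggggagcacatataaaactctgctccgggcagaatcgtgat
The Tgfbi window is chr13:56609336-56609585 on the plus strand and that of Tgfb2 is chr1:186705990-186706239 on the minus strand. Each holds 2 matches. Of 32851 promoter windows of this length, 42.2% held at least 1 match and 11.7% held 2 or more. The Tgfb1 window and the 3 Ltbp4 windows held 0, Tgfbr2 held 1, the 2 windows of Ltbp1 held 1 and 2, and the 2 windows of Tgfbr1 held 0 and 1. A match describes the letters only.

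The order of the libraries was set beside that of cell type genes chosen after their values were seen. Tgfb2 had the libraries in the same order, from high to low, as Pdgfrb, the platelet-derived growth factor receptor of stellate cells and other pericytes. That order was PBS replicate 3, PBS replicate 1, DOX replicates 3, 2 and 1, and PBS replicate 2. Pdgfrb stood at 47.3, 19.3 and 59.0 CPM in the PBS libraries, against 23.1, 23.9 and 27.1 CPM in the DOX libraries. PBS replicate 2 was the lowest library for Tgfb2, Tgfb3, Pmepa1, Tgfbi and Pdgfrb. Acta2, the smooth muscle actin of myofibroblasts, was likewise highest in PBS replicates 3 and 1. Other stellate markers had other orders. Lrat was highest in PBS replicate 3 and DOX replicate 1, Rgs5 in DOX replicate 1, and Col1a1 was lowest in PBS replicate 1. This is a description over 6 libraries, and the part of stellate cell content in these levels was not tested.

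**Figure D4:**
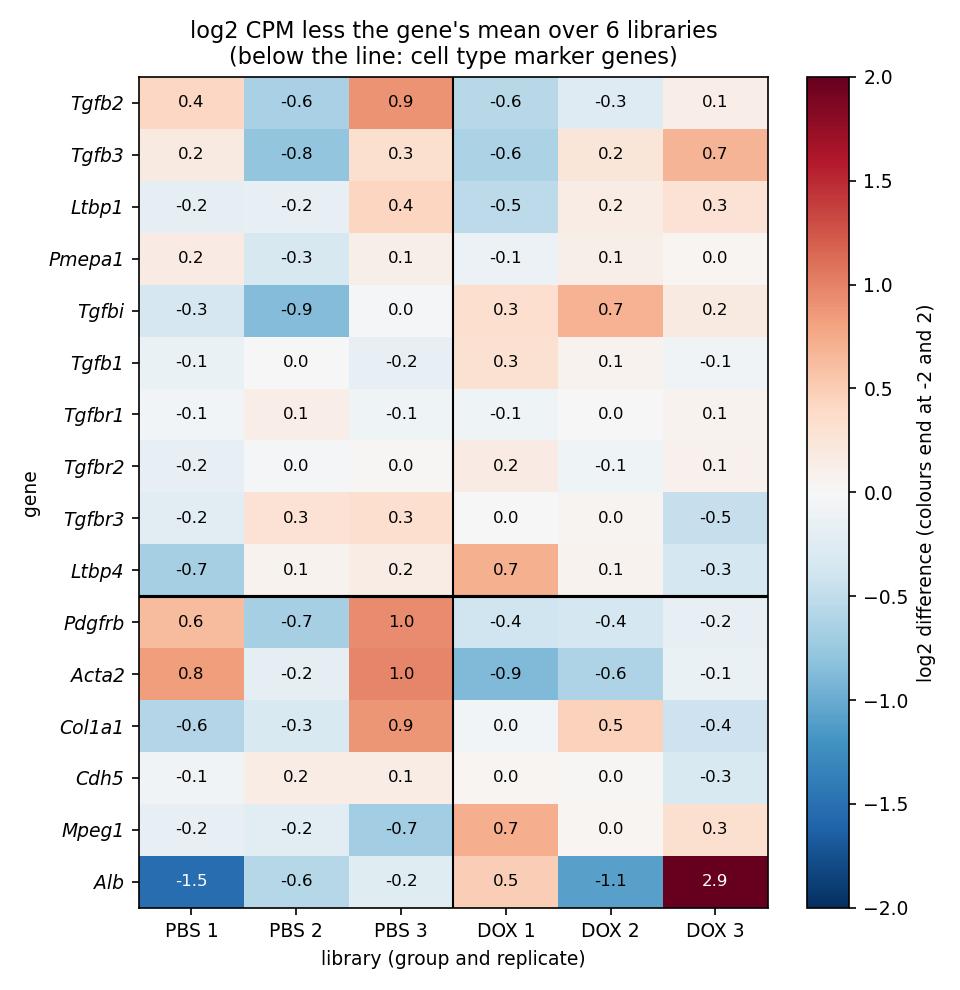
Log2 CPM of each gene less its mean over the 6 libraries (columns), with the 10 TGF-beta genes above the line and stellate (Pdgfrb, Acta2, Col1a1), endothelial (Cdh5), macrophage (Mpeg1) and hepatocyte (Alb) genes below it. The rows of Tgfb2 and Pdgfrb run in the same order, and among the 10 genes those of Tgfbr1 and Tgfbr2 stay closest to 0.

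Across the transcriptome, the genes most like 3 of the 10 in profile were found by the root mean square difference of log2 CPM, each gene less its own mean, over 6 libraries and 9959 genes with a mean of at least 5 CPM. For Tgfb2, the gene with the largest SD of log2 CPM among the 10 (0.58), they were Glis3, Pamr1 and Rnf150, with differences of 0.09, 0.11 and 0.11. For Tgfbi (SD 0.54) they were Ifitm1, Bcl3 and Adora2b, with differences of 0.06, 0.12 and 0.16. Bcl3 encodes a nuclear regulator of NF-kB and Ifitm1 an interferon-induced membrane protein. For Tgfb1 (SD 0.17) they were Tmed1, Scpep1 and Golga3, with differences of 0.02, 0.02 and 0.03. A gene as flat as Tgfb1 is close to any other flat gene by this measure.

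The other genes of the pathway were read from 4 lists holding 101 genes, of which 96 were tested. Of these, 5 passed the edgeR threshold, all lower in DOX: Nrp1, Smad6, Smad7, Cdkn2b and Ptx3. That is 0 higher against 4.38% of all genes and 5 lower against 2.04% of all genes. The median log2 fold change of the 96 was -0.08, beside -0.01 over all genes. limma-voom called 5 (5.97% of all genes) and DESeq2 20 (17.0% of all genes), of which 16 were lower (6.08% of all genes). Leaving out 1 library gave 3 calls (PBS replicate 1, 5.28% of all genes), 1 (DOX replicate 2, 2.95%) or 6 (DOX replicate 3, 7.42%). It gave 0 without PBS replicate 2 or PBS replicate 3 (0.00% of all genes each) and 0 without DOX replicate 1 (0.577%).

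**Figure D5:**
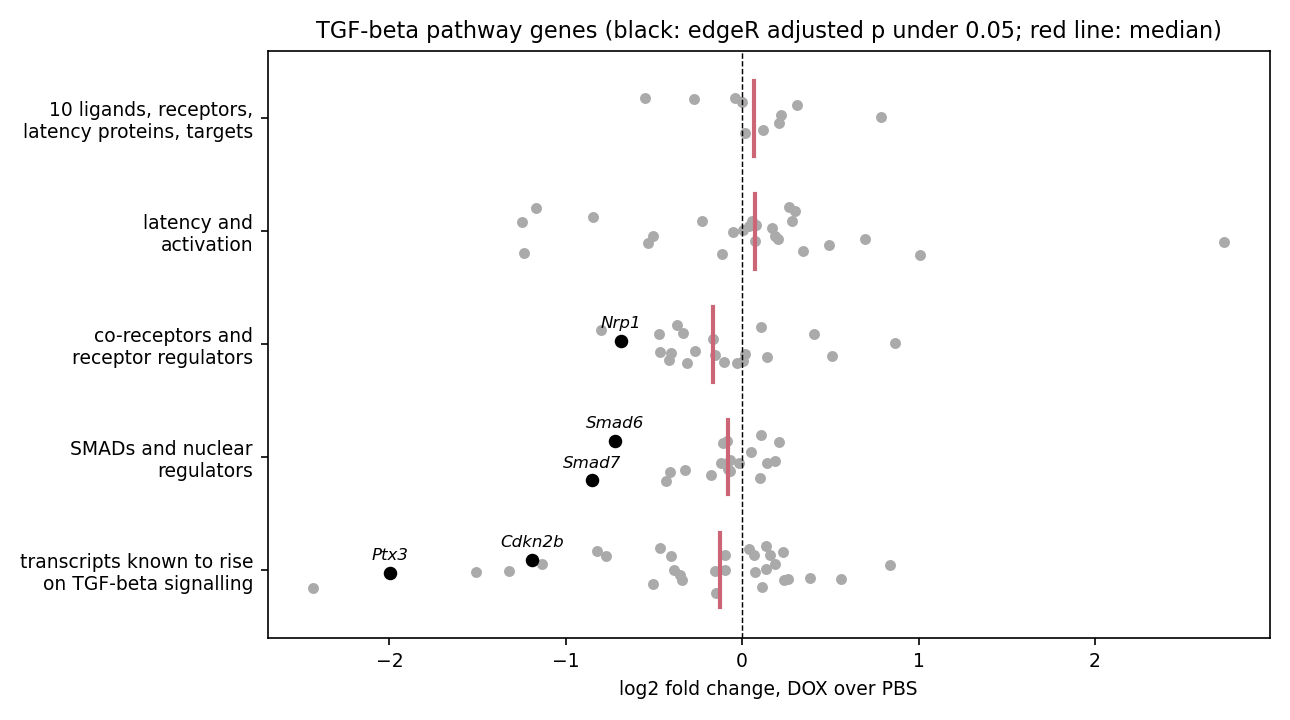
Log2 fold change of DOX over PBS (x axis) for the 10 genes and the 4 lists of other pathway genes, 1 point per gene, with black points for an edgeR adjusted p under 0.05 and a red line at the median. The 5 black points lie below 0, while the points of the 10 genes are all grey and their median is 0.07.

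Among 25 tested genes of latency and activation, 0 were called by edgeR, with 7 at an unadjusted p under 0.05 (28.7% of all genes), 0 in limma-voom (5.97%) and 5 in DESeq2 (17.0%), and a median log2 fold change of 0.07. Thbs1, whose product thrombospondin 1 releases TGF-beta from latency, stood at 2908, 1395 and 3439 CPM in the PBS libraries, against 860, 1094 and 1333 CPM in the DOX libraries. These groups did not overlap, and PBS replicate 2 was close to the DOX libraries (log2 fold change -1.24, SE 0.34, adjusted p = 0.0732 by edgeR). Ltbp2, a family member that does not bind latent TGF-beta, had a log2 fold change of -1.25 (SE 0.30, adjusted p = 0.0530 by edgeR). Mmp9, a gelatinase reported to cleave latent complexes, averaged 0.616 ± 0.431 CPM under PBS and 4.13 ± 3.19 CPM under DOX (SD, n = 3 each, adjusted p = 0.0646 by edgeR). Neutrophils are a known source of Mmp9, and their 7 markers summed to 27.2 to 58.8 CPM in PBS libraries and 106 to 152 CPM in DOX libraries. Most of this was 1 gene, Csf3r, with means of 39.3 CPM in PBS and 116 CPM in DOX. Of 4 markers tested, 3 were called higher in DOX (4.38% of all genes). Mmp8 overlapped between groups, and Ly6g was at no more than 0.109 CPM. The part of neutrophil RNA in the Mmp9 level was not tested. The surface anchors of latent TGF-beta were named after their values were seen. Lrrc32, which encodes GARP, averaged 338 ± 92.1 CPM under PBS and 411 ± 138 CPM under DOX (SD, n = 3 each, adjusted p = 0.538 by edgeR), and Nrros, the macrophage and microglial anchor, had a log2 fold change of 0.08 (adjusted p = 0.831 by edgeR).

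Among 21 co-receptors and receptor regulators edgeR called 1 (6.41% of all genes), and it was lower in DOX (2.04% of all genes). This was Nrp1, which encodes neuropilin 1, a co-receptor of VEGF and semaphorins that also binds TGF-beta. It fell from 139, 138 and 138 CPM in the PBS libraries to 78.5, 80.0 and 99.0 CPM in the DOX libraries. The PBS libraries agreed closely, and every DOX library was lower (log2 fold change -0.69, SE 0.11, adjusted p = 0.0265 by edgeR). This call was lost in 4 of 18 other settings, each with 1 library left out. The median of this list was -0.16. Nrp1 is abundant in sinusoidal endothelium, and endothelial markers summed to 6699 to 8074 CPM in PBS and 5755 to 6992 CPM in DOX. Of these 12 markers 1 was called lower, Tek (2.04% of all genes). Their part in the Nrp1 level was not tested.

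Among 19 tested SMADs and nuclear regulators edgeR called 2 (6.41% of all genes), both lower in DOX (2.04% of all genes). They were Smad6 and Smad7, the inhibitory SMADs that SMAD signalling itself induces. Smad7 fell from 52.9, 49.5 and 58.9 CPM in the PBS libraries to 22.4, 29.1 and 37.9 CPM in the DOX libraries, a log2 fold change of -0.85 (SE 0.19, adjusted p = 0.0467 by edgeR). The part of endothelial RNA, whose marker sums are given above for Nrp1, was not tested here either. Smad6 fell 1.65-fold, from 60.3 ± 5.98 to 36.5 ± 4.13 CPM (SD, n = 3 each, adjusted p = 0.0277 by edgeR). Over 18 other settings the Smad7 call was lost in 6 and the Smad6 call in 4, mostly with 1 library left out. The SMADs that carry the TGF-beta signal, named after their values were seen, did not pass the test. Smad2 had a log2 fold change of 0.10, Smad3 of -0.11 and Smad4 of -0.17, with edgeR adjusted p of 0.391, 0.719 and 0.234.

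Among 32 tested transcripts known to rise on TGF-beta signalling edgeR called 2 (6.41% of all genes), both lower in DOX (2.04% of all genes). Cdkn2b, which encodes the cell cycle inhibitor p15 and is a classic SMAD target, fell from 67.9, 62.0 and 52.3 CPM in the PBS libraries to 23.9, 23.0 and 32.8 CPM in the DOX libraries. The groups stood well apart, and the log2 fold change was -1.19 (SE 0.17, adjusted p = 0.0240 by edgeR). This call was lost in 3 of 18 other settings, each with 1 library left out. Ptx3, a pentraxin better known from innate immunity, fell 3.99-fold (adjusted p = 0.0408 by edgeR), a call lost in 8 of 18 other settings. These were limma-voom (adjusted p = 0.0634), the replicate block (edgeR adjusted p of 0.0648) and every fit with 1 library left out. The median of the list was -0.13, with 18 of 32 negative. Ccn2, the connective tissue growth factor gene, named after its values were seen, stood at 787, 294 and 728 CPM in the PBS libraries, against 41.9, 58.7 and 235 CPM in the DOX libraries (log2 fold change -2.43, SE 0.71, adjusted p = 0.0827 by edgeR). Its lowest PBS and highest DOX library, PBS replicate 2 and DOX replicate 3, were close to each other. The 9 activated stellate markers overlapped in sum, at 882 to 1473 CPM in PBS libraries and 1074 to 1413 CPM in DOX libraries, with Spp1 the largest part by group mean. Within them Acta2 and Tagln, contractile genes also on this list and named after their values were seen, had log2 fold changes of -1.13 and -1.51 (edgeR adjusted p of 0.0797 and 0.0958, DESeq2 0.00745 and 0.00702).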

How the data were processed

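RNA of 6 libraries of primary hepatic stellate cells was sequenced with a SMARTER mRNA kit, per the labels' protocols. The authors deposited raw read counts covering 22905 gene symbols, and FPKM values of the same genes. The deposited FPKM equals the count over a fixed gene length and the library total (100% of nonzero values within a relative tolerance of 0.0001). The aligner, the counter and the use of strand were not given in the sources used here. GRCm38, mm10 and hg38 are named without a role, per the submitters' processing notes.

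The test was edgeR 4.0.16 (R 4.3.3), quasi-likelihood, TMM factors, group as the only term, filterByExpr (minimum count 10, minimum total 15), two-sided, with Benjamini-Hochberg adjustment over 14439 genes and a threshold of 0.05. CPM values use TMM-scaled totals. SE came from the F statistic and 95% intervals from the moderated degrees of freedom (7.06). Counts of 3 reads, the limit a count of 0 allows, were 0.0758 to 0.0878 CPM, covering counting error only. Replicate pairs differed by a chi-square per degree of freedom of 38.6 to 82.1, beyond counting noise. Alternatives were other scalings (RLE, upper quartile, library totals alone), other filters (none, or 5 CPM in 3 samples), DESeq2 1.42.0, limma-voom (limma 3.58.1), a robust fit, a block for replicate number, limma fits of FPKM (log2 after adding 1 or 0.1, or at least 1 FPKM in 3 samples), leaving out each library and, added after seeing the data, GENCODE exonic lengths. The code was tested on simulated counts.

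The 10 genes, the pathway lists and the markers were chosen with earlier results of these data known. Named pathway genes were those past the threshold in each list (at most 6) or, with none, the 3 with the lowest p. Profiles were compared for Tgfb1 and the 2 genes of the 10 with the largest SD at a mean of at least 1 CPM, after adding 0.5 CPM. Coding sequences come from GENCODE M21 and promoters from RefSeq, both on GRCm38.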

Additional observations from a re-analysis of the deposited data

How the results depend on the processing

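The number of the 10 genes called was 0 in all settings but DESeq2, which called 1, Tgfbi (17.0% of all genes). The settings with 0 called between 0.00% and 11.1% of all genes. With each library left out it was 0, beside 0.00% to 7.42% of all genes. Without PBS replicate 2 or PBS replicate 3 no gene of the whole table was called, so 0 of 10 was fixed there. Several genes near 0 changed sign. Tgfbr1 had a log2 fold change of -0.020 with upper-quartile factors, -0.12 by library totals alone, -0.0030 without a low-count filter, and -0.12 in each of the 3 limma fits on FPKM. Tgfbr2 had -0.0085 by library totals alone and -0.0095, -0.0097 and -0.0095 on log2(FPKM + 1), on log2(FPKM + 0.1) and with at least 1 FPKM in 3 samples. Pmepa1 had -0.0081 with upper-quartile factors, -0.11 by library totals alone and -0.090, -0.098 and -0.090 in the same FPKM fits. None of these was called. With each library left out in turn, Tgfb3 ranged from -0.11 to 0.51, Tgfbr1 from -0.040 to 0.070, Ltbp1 from -0.20 to 0.19, Ltbp4 from -0.016 to 0.53 and Pmepa1 from -0.12 to 0.10. The Tgfb1 share of ligand FPKM differed by -0.21 to 1.69 percentage points and the log2 ratio of Tgfbr2 to Tgfbr1 by 0.02 to 0.19.

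Of the other pathway genes, 5 were called as reported (6.41% of all genes). The count was 10 by library totals alone (9.29% of all genes), 8 with at least 5 CPM in 3 samples (9.32%) and 20 in DESeq2 (17.0%). It was 8 on log2(FPKM + 1) (5.71%), 9 on log2(FPKM + 0.1) (6.63%) and 10 with at least 1 FPKM in 3 samples (11.1%). With each library left out it was 0 to 6, beside 0.00% to 7.42% of all genes. The cause was not tested. Over all genes, library totals gave 611 higher and 730 lower calls in place of 632 and 294, and edgeR called 0 without PBS replicate 2 or PBS replicate 3 (3294 and 3092 genes at an unadjusted p under 0.05). The labels do not say that replicate numbers pair the samples, and correlations of same-numbered libraries' deviations were 0.09, -0.11 and 0.22. With the replicate block 0 of the 10 genes and 6 of the other pathway genes were called (5.41% of all genes). Ltbp2 and Tagln were gained and Ptx3 was lost. The Tgfb1 share and the receptor ratio were tested there by flipping signs of the differences between same-numbered libraries (exact sign-flip p = 0.75). With so few pairs that test cannot reach 0.05.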
